A study of Mus musculus with 20 samples.

Results

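The genes described here encode chaperones and the factors that control them: 20 genes of the endoplasmic reticulum and 16 heat shock protein genes of the cytosol and mitochondria. They were taken from a list of 36 symbols, and each was represented by the single-gene probe set with the highest mean over all samples. That gave 35 of the 36, all of them among the 11200 genes tested. For Hsp90ab1 the platform annotation listed no probe set of that gene alone, and it is not analysed here.

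RNA was measured on Affymetrix mouse arrays in gastrocnemius, a calf muscle, from mice that received JA16, an antibody that binds myostatin, or saline, with 10 samples in each group. Myostatin is a secreted protein that restrains muscle growth, and the comparison addresses how muscle gene expression responds when it is blocked. JA16 went into the peritoneal cavity on day 1 at 0.12 mg per g of body weight and again on day 3 at 0.09 mg per g. Control mice received saline by the same route and on the same days, and all mice were killed on day 5. The labels give no strain, sex or age. The labels do not state that each sample came from its own mouse, so the spread behind each p-value may be technical in part.

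Proteins that enter the secretory pathway fold in the endoplasmic reticulum with the help of Hsp70 and Hsp90 relatives, sugar-binding chaperones and enzymes that form disulfide bonds. When unfolded protein builds up there, the sensors encoded by Ern1, Atf6 and Eif2ak3 start the unfolded protein response, which raises transcription of the reticulum chaperones. In the cytosol the heat shock factor Hsf1 does the same for Hsp70, Hsp40 and the small heat shock proteins. Muscle fibres are rich in small heat shock proteins, which bind to filaments of the contractile apparatus, and their sarcoplasmic reticulum is a specialised part of the same membrane system.

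The reference promoters of these genes were searched for the short sequences through which both responses are known to act. A RefSeq table (assembly GRCm38.p6) held a promoter of 250 bases before to 50 bases after the start for 30 of the 36 genes. Both strands were searched for the endoplasmic reticulum stress element (CCAAT, any 9 bases, CCACG), for its type II form (ATTGG, any 1 base, CCACG), and for the heat shock element (GAA, 2 bases, TTC, 2 bases, GAA, or its complement TTC, 2 bases, GAA, 2 bases, TTC). The stress element was present for 6 of 18 reticulum genes (33.3%) and for 0 of 12 others, against 37 of 27025 genes of the whole table (0.14%). Its type II form was present for Dnajb11 and Herpud1, 2 of 18 reticulum genes (11.1%), against 12 genes of the table (0.04%). The heat shock element was present for 0 of 18 reticulum genes and for 3 of 12 others (25.0%), against 179 genes of the table (0.66%). The 3 were Hspd1 and Hspe1, whose matches are the same bases, and Hsph1, whose match lies after the start. Hspa1b and Dnajb1 held no match to this pattern. A match describes the letters only, not binding in this muscle.

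Windows around the matches of 6 genes are shown because these genes appear in the results below, with the matched bases in capitals and each sequence 5′ to 3′ on the strand of its gene. They lie upstream of the start of Hspa5 (chr2:34772005-34772063, plus strand), Canx (chr11:50325780-50325838, minus strand), Dnajc3 (chr14:118937807-118937865, plus strand), Pdia6 (chr12:17266471-17266529, plus strand), Herpud1 (chr8:94386357-94386407, plus strand) and Hspe1 (chr1:55088039-55088096, plus strand).
Hspa5: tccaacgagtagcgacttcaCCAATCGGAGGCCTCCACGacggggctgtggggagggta
Canx: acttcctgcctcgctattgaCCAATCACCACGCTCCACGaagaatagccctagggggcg
Dnajc3: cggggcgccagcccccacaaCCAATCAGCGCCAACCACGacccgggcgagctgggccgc
Pdia6: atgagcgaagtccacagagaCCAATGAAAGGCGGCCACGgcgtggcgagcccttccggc
Herpud1: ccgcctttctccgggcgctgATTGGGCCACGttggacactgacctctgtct
Hspe1: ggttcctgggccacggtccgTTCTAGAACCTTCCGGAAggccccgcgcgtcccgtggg
The first 4 hold the stress element, Herpud1 the type II form, and Hspe1 a pair of overlapping heat shock elements. The Hspe1 window is also the promoter of Hspd1, which is read from the opposite strand. Calr held 1 stress element and Hsp90b1 held 2, while Mlec, the gene with the clearest difference below, held no match of any kind in its window.

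JA16 muscle differed from saline muscle in 1 chaperone gene. Mlec rose, and the other 34 genes did not pass the test. The test was limma on log2 intensity with the replicate number as a block and a Benjamini-Hochberg adjusted p under 0.05 over all 11200 genes. Under this rule 1 of 35 chaperone genes was called, beside 31 genes or 0.277% of all genes tested. Without the block 0 of 35 were called, beside 4 genes or 0.0357%, and in that limma fit 1 of the 35 had an unadjusted p under 0.05. In the blocked fit 7 of 35 (20%) had an unadjusted p under 0.05 (Hsp90b1, Dnajc3, Canx, Mlec, Atf6, Hspb1 and Hspb8), beside 16.2% of all genes. The same direction in at least 9 of the 10 same-numbered pairs was seen for 4 of 35 (11.4%: Mlec, Canx, Dnajc3 and Atf6), beside 6.77% of all genes.

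Across the reticulum genes the log2 fold change, JA16 over saline, had a median of -0.032, with 9 values above 0 and 11 below. Across the cytosolic and mitochondrial genes the median was 0.043, with 10 above 0 and 5 below. All genes tested had a median of -0.016, with 45.8% above 0. In the blocked fit, standard errors of the chaperone genes ran from 0.045 to 0.31, with a median of 0.078. Without the block the median was 0.157. With the block, the 95% interval lay within a 1.3-fold change in either direction for 23 of the 35. Of these, 12 were in the reticulum and 11 outside it, among them Hspa5, Calr, P4hb, Xbp1, Hspa8, Hsph1, Cryab and Hspb6. For the other 12 the interval reached beyond 1.3-fold in at least 1 direction. Intervals without the block were not counted against this limit. Of 25 genes with 2 or more probe sets above the intensity limit, 18 had all of them on 1 side of 0, and 7 did not (Atf6, Edem1, Hspa1b, Hsph1, Hyou1, Pdia3 and Sel1l).

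**Figure D1:**
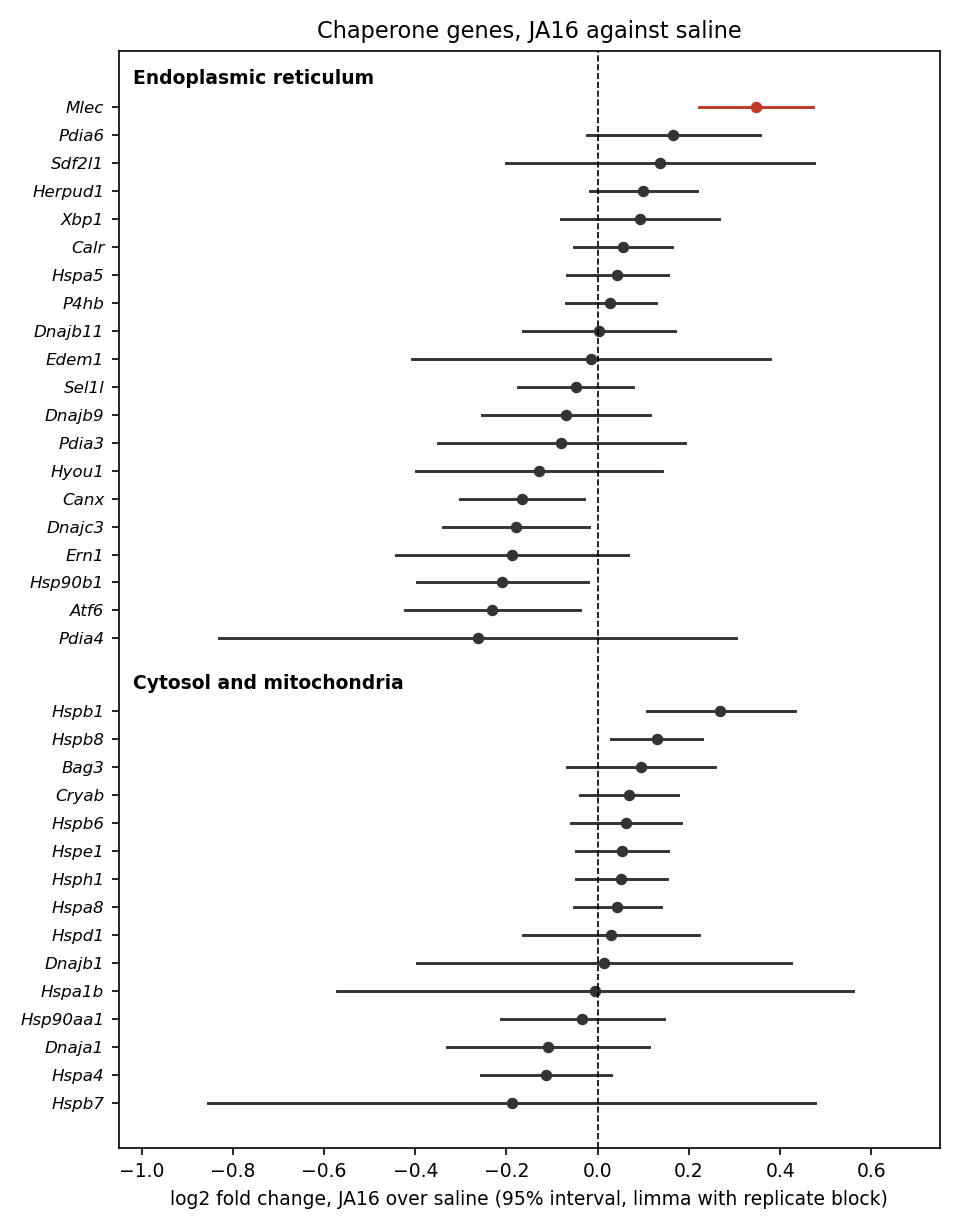
Log2 fold change, JA16 over saline, of the 35 chaperone genes (points) with 95% intervals from limma with the replicate block (bars), in order of size within the reticulum and within the cytosol and mitochondria. Mlec, in red at 0.35, is the 1 gene that passed the adjusted threshold, and the widest intervals belong to Hspb7, Pdia4 and Hspa1b.

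Mlec encodes malectin, a reticulum protein that binds glucosylated sugar chains on newly made glycoproteins. Its intensity in saline replicates 1 to 10 was 3612.8, 3163.7, 2637.1, 2323.5, 2254.1, 3137.7, 3168.0, 2919.5, 3446.4 and 2976.7. In JA16 replicates 1 to 10 it was 3976.3, 3409.3, 3405.8, 2855.8, 2833.3, 4530.2, 4163.6, 4494.1, 4488.9 and 3666.7. The JA16 sample was the higher one in all 10 pairs, by 0.11 to 0.62 on the log2 scale, although the 2 groups overlap as wholes. Replicates 4 and 5 were the lowest in both groups. The mean rose from 2964 ± 445.8 to 3782.4 ± 649.9 (SD, n = 10 in each group), which is 1.27-fold, or 0.35 on the log2 scale (SE 0.058, 95% interval 0.22 to 0.47, limma adjusted p = 0.0198).

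The other Mlec probe sets above the intensity limit gave mean pair differences of 0.37, higher in 10 of 10 pairs, and 0.26, higher in 8 of 10. Fitted alone, replicates 1 to 6 gave 0.295 and replicates 7 to 10 gave 0.425. The call depended on the block: without it the fold change was the same, with an SE of 0.115, an unadjusted p of 0.0061 and a limma adjusted p of 1.0. It was also lost when the pair of replicate 4, 6, 7 or 9 was left out (limma adjusted p = 0.0601, 0.0736, 0.0516 and 0.0508). With centred array medians, without the intensity trend, with the array set as the block, with the beta-actin ratio as a covariate and in either set of replicates alone, the limma adjusted p was 0.101 to 0.62. In every pair the JA16 array had the higher of 2 adjacent array numbers, so treatment and array order within a pair cannot be told apart.

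The other sugar-binding chaperones, calreticulin and calnexin, hold glycoproteins in the folding cycle. Calr ranged from 7746.3 to 11014.7 in saline and from 6733.8 to 12582.7 in JA16, with a log2 fold change of 0.056 (SE 0.050). Canx ranged from 3595.4 to 4846 in saline and from 2595.7 to 4181.2 in JA16. It was lower in JA16 in 9 of 10 pairs (log2 fold change -0.17, SE 0.064, limma adjusted p = 0.239), and its 2 other probe sets gave -0.23 and -0.22. Replicates 1 to 6 alone gave -0.083 for Canx and replicates 7 to 10 gave -0.29, where JA16 replicate 8 was the lowest sample. Mlec and Canx, members of 1 functional group, thus lay on opposite sides of 0.

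Among the reticulum chaperones and cochaperones, Hspa5 encodes BiP, the central Hsp70 of the compartment and the usual readout of reticulum stress. Its intensity was 4792.7 at the lowest, 5517.7 at the median and 7174.9 at the highest in saline, and 4660.1, 6006.6 and 6688 in JA16. The groups overlap almost entirely, 5 pairs were higher and 5 lower, and the log2 fold change was 0.043 (SE 0.052, 95% interval -0.068 to 0.16, limma adjusted p = 0.704). The Hspa5 value was -0.007 with quantile normalization and -0.019 in replicates 7 to 10 alone.

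Hsp90b1 encodes the reticulum Hsp90. It ran from 489.3 over a median of 952.8 to 3373.1 in saline and from 412.1 over 904.9 to 2410.2 in JA16. Replicate 7 was the highest sample in both groups and replicate 2 the lowest, so the spread between pairs exceeded the difference within them. The JA16 sample was lower in 8 of 10 pairs (log2 fold change -0.21, SE 0.088, limma adjusted p = 0.267), and the second probe set gave -0.22.

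Dnajc3, a cochaperone of BiP, ranged from 744.9 to 1483.9 in saline and from 648.2 to 1309.2 in JA16 and was lower in 9 of 10 pairs (log2 fold change -0.18, SE 0.075, limma adjusted p = 0.266). All 5 Dnajc3 probe sets gave values below 0, between -0.40 and -0.18. The remaining genes of this group did not move in 1 direction. Hyou1, an Hsp70-like exchange factor, gave -0.13, Dnajb9 gave -0.069 and Dnajb11 gave 0.003. The 2 Hyou1 probe sets above the intensity limit disagreed, at -0.13 and 0.24. Sdf2l1, which works with the Dnaj proteins, ran from 94.4 over 191.5 to 297.5 in saline and from 120.3 over 198.9 to 394.2 in JA16 (log2 fold change 0.14, SE 0.16, limma adjusted p = 0.693). Its value was -0.070 with the beta-actin control ratio as a covariate.

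The disulfide isomerases form and rearrange disulfide bonds. P4hb ranged from 7438.6 to 10148.4 in saline and from 6618.9 to 11620.2 in JA16, with a log2 fold change of 0.028 (SE 0.046). Pdia3, the partner of calnexin and calreticulin, gave -0.080 (SE 0.13). Pdia4 had the lowest fold change of the reticulum genes, -0.26, with an SE of 0.27 (limma adjusted p = 0.641). Its intensity ran from 31.9 over 54.2 to 246 in saline and from 17.9 over 63 to 117.2 in JA16, close to the limit of 50.1 below which probe sets were left out. Pdia6 ran from 333.9 over 415.1 to 1164.2 in saline and from 352.2 over 527.1 to 987.7 in JA16, higher in 7 of 10 pairs (log2 fold change 0.17, SE 0.089, limma adjusted p = 0.357).

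The sensors and the transcription factor that acts below Ern1 gave no called gene. Atf6, a membrane-bound transcription factor released by stress, ran from 350.7 over 422.4 to 984.4 in saline and from 235.8 over 378.1 to 943.8 in JA16. It was lower in 9 of 10 pairs, and its fold change on the log2 scale was -0.23 (SE 0.090, limma adjusted p = 0.241), but its other 2 probe sets gave -0.006 and 0.032. Ern1, which encodes the sensor kinase IRE1, ran from 439.8 over 588.3 to 745.6 in saline and from 366.9 over 504.9 to 756 in JA16. Its log2 fold change was -0.19 (SE 0.12, limma adjusted p = 0.438), with -0.031 in replicates 1 to 6 and -0.42 in replicates 7 to 10. Xbp1, whose RNA is spliced by IRE1, ran from 1536.6 over 2158.7 to 3341.3 in saline and from 1639.5 over 2157.9 to 3446.8 in JA16 (log2 fold change 0.093, SE 0.082, limma adjusted p = 0.582). The array values do not separate spliced from unspliced Xbp1 RNA.

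None of the 3 genes of reticulum-associated degradation, which removes misfolded proteins, passed the test. Herpud1 gave 0.10 (SE 0.055), Sel1l gave -0.048 (SE 0.059) and Edem1 gave -0.015 (SE 0.18). Edem1 was highest in saline replicate 7, at 369.8, and lowest in JA16 replicate 8, at 69.6. The second Edem1 probe set gave 0.18, and the 4 other Sel1l probe sets gave values above 0, up to 0.15.

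Of 40 further reticulum folding and stress genes, 39 were tested and 0 were called with limma, with or without the block. Of these, 15 (38.5%) had a log2 fold change above 0 and 24 below (median -0.035), beside 45.8% above 0 over all genes. The blocked limma fit gave 6 of them (15.4%) an unadjusted p under 0.05, beside 16.2% of all genes. The 3 highest were Sec61b, a subunit of the channel through which proteins enter the reticulum (0.28, SE 0.061, limma adjusted p = 0.0726, higher in 9 of 10 pairs), Manf (0.19) and Ddit3 (0.12). The 3 lowest were Chac1, a target of the Atf4 branch (-0.68, SE 0.28, limma adjusted p = 0.253), the sensor kinase gene Eif2ak3 (-0.41, SE 0.17, adjusted p = 0.255) and Edem3 (-0.35, SE 0.12, adjusted p = 0.205). Chac1 averaged 2950.7 ± 1290.8 in saline and 1860.6 ± 908.7 in JA16 (SD, n = 10), lower in 7 of 10 pairs.

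In the cytosol, the 2 highest fold changes belonged to small heat shock protein genes. Hspb1 encodes Hsp27, which binds actin filaments and unfolded protein. It ran from 4361.5 over 6833.6 to 11352.7 in saline and from 6123.9 over 8573.6 to 15105.2 in JA16. Replicate 2 was the highest sample in both groups, and 8 of 10 pairs were higher in JA16. The means were 7531.2 ± 2242 and 9077 ± 2825.6 (SD, n = 10), and the log2 fold change was 0.27 (SE 0.076, 95% interval 0.11 to 0.43, limma adjusted p = 0.157), short of the threshold. The second Hspb1 probe set gave 0.33, higher in 9 of 10 pairs.

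Hspb8, the partner of Bag3 in clearing damaged filament proteins, ran from 8965.6 over 11238.5 to 12246 in saline and from 10457.7 over 12024.9 to 14163.6 in JA16. It was higher in 8 of 10 pairs, the log2 fold change was 0.13 (SE 0.047, limma adjusted p = 0.215), and its other probe sets gave 0.35 and 0.20. Bag3 itself ran from 2010.2 over 2690.2 to 4028.6 in saline and from 1854.4 over 3036.8 to 4903.9 in JA16 (0.095, SE 0.076, adjusted p = 0.547). These 2 genes of the same clearance machinery were both above 0, but neither passed the test.

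Cryab, which encodes alpha B-crystallin and is bound to desmin in muscle, ran from 11883.5 over 15469.7 to 16372.8 in saline and from 12944.8 over 15662 to 20162.5 in JA16. Its log2 fold change was 0.069 (SE 0.051, limma adjusted p = 0.506) and -0.005 with quantile normalization. Hspb6 gave 0.063 (SE 0.056). JA16 replicate 2 was the highest sample for Hspb1, Hspb8, Cryab and Hspb6. The same sample had the highest summed intensity of 12 slow fibre markers, 166943.5 against a JA16 median of 74415.8, and of 12 general fibre markers, 318427.2 against 257489.4. Over the 10 pair differences, Cryab and Hspb6 had correlations with Tnnt1, the slow troponin T gene, of r = 0.282 and 0.266 (adjusted permutation p = 0.583 for both over the 8 relations described below).

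Hspb7, a small heat shock protein of heart and skeletal muscle, had the widest interval. It ran from 854.8 over 2179.7 to 3357.5 in saline and from 325.4 over 1917 to 4262.4 in JA16, with 5 pairs higher and 5 lower. The log2 fold change was -0.19 (SE 0.31, limma adjusted p = 0.795), and 0.14 without replicate 3, where JA16 stood at 325.4 and the pair difference was -3.19. The JA16 sample of replicate 3 also had the lowest slow fibre marker sum, 8551.7.

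**Figure D2:**
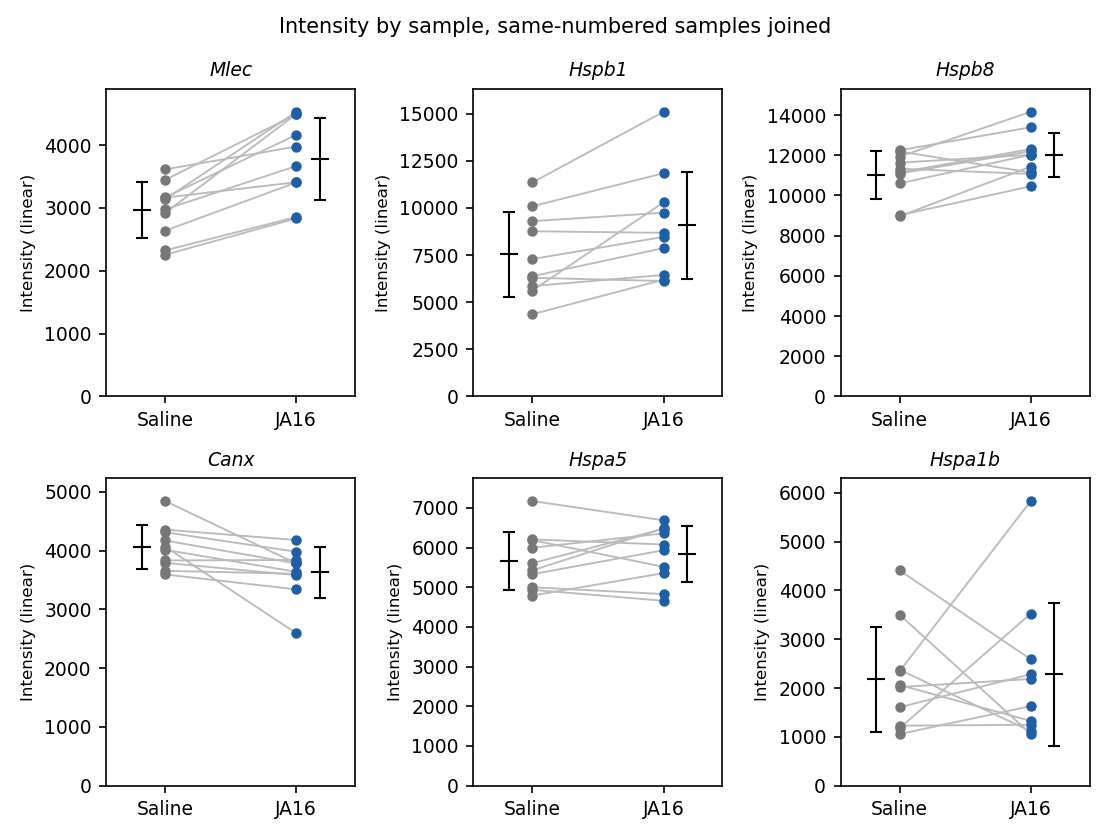
Linear MAS5 intensity of 6 chaperone genes in the 10 saline and 10 JA16 samples, with same-numbered samples joined by lines and each group's mean ± SD beside its points. All 10 lines rise for Mlec and 8 of 10 for Hspb1 and for Hspb8, 9 of 10 fall for Canx, and the lines cross for Hspa5 and Hspa1b.

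None of the Hsp70, Hsp110 and Hsp40 genes passed the test, and their precision differed widely. Hspa8 encodes the constitutive Hsp70. It ranged from 13805 to 19596.5 in saline and from 15475.5 to 22446.3 in JA16, with a log2 fold change of 0.043 (SE 0.045), the smallest SE of the 35. The chosen probe set was higher in 5 pairs and lower in 5. Of its 3 others, a pair gave 0.11 each, with SEs of the pair differences of 0.027 and 0.028 and higher values in 9 of 10 pairs, and the third gave 0.27, higher in 7. Hspa4, an Hsp110-type exchange factor, ran from 2718.9 over 3327.1 to 3743.5 in saline and from 2612.7 over 3180.5 to 3397 in JA16 (-0.11, SE 0.067, limma adjusted p = 0.403), and its 3 probe sets above the intensity limit all gave values below 0. Hsph1, of the same family and heat-inducible, ran from 7934 over 8940.6 to 9886.4 in saline and from 8032.2 over 9483 to 10389.5 in JA16 (0.052, SE 0.047, adjusted p = 0.594), and gave -0.011 with quantile normalization.

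Hspa1b encodes the stress-inducible Hsp70. It ran from 1057.9 over 2041.5 to 4409.6 in saline and from 1060.5 over 1907.8 to 5831.5 in JA16. The highest saline sample was replicate 2 and the highest JA16 sample replicate 6, and pair differences ran from -1.72 to 1.58. The log2 fold change was -0.006 with an SE of 0.27 (95% interval -0.57 to 0.56, limma adjusted p = 0.995), and its sign was turned under 8 of 23 alternative settings. The near-identical gene Hspa1a gave -0.058 (SE 0.30), and probes of the 2 genes may share transcripts.

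Dnajb1, the Hsp40 partner of inducible Hsp70, ranged from 773 to 3812.7 in saline and from 799.9 to 4261.9 in JA16 (log2 fold change 0.013, SE 0.19). Dnaja1 ran from 650.7 over 1095.1 to 2517.2 in saline and from 627.4 over 961.2 to 2199.8 in JA16 (-0.11, SE 0.10, limma adjusted p = 0.622), with a value of 0.078 in replicates 7 to 10 alone. Hsp90aa1, the inducible cytosolic Hsp90, ranged from 482 to 2617.3 in saline and from 421.7 to 2366 in JA16 (-0.034, SE 0.084). The mitochondrial pair Hspd1 (Hsp60) and Hspe1 (Hsp10), whose shared promoter is shown above, gave 0.029 (SE 0.090) and 0.053 (SE 0.047).

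Hspa1b and Dnajb1 varied together from pair to pair. Over the 10 pair differences, Pearson's r was 0.917 (permutation p = 0.00023, adjusted p = 0.00184 over 8 relations) and Spearman's rho was 0.903 (permutation p = 0.00095, adjusted p = 0.0076). Without replicates 3 and 8, the pairs farthest from the median of Hspa1b, r was 0.916. Within replicates 1 to 6 it was 0.954, and replicates 7 to 10 hold too few pairs for a value. Hspa1b was higher in JA16 in 6 pairs and lower in 4, so the 2 genes moved together without a common direction with treatment. Of the other 7 relations none passed, with adjusted permutation p-values of 0.583 or more for r. Hspa5 with Hsp90b1 gave r = 0.485, Hspa1b with Hsph1 gave 0.238, and Hspa5 with Hspa1b, the lead genes of the 2 stress responses, gave 0.249.

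**Figure D3:**
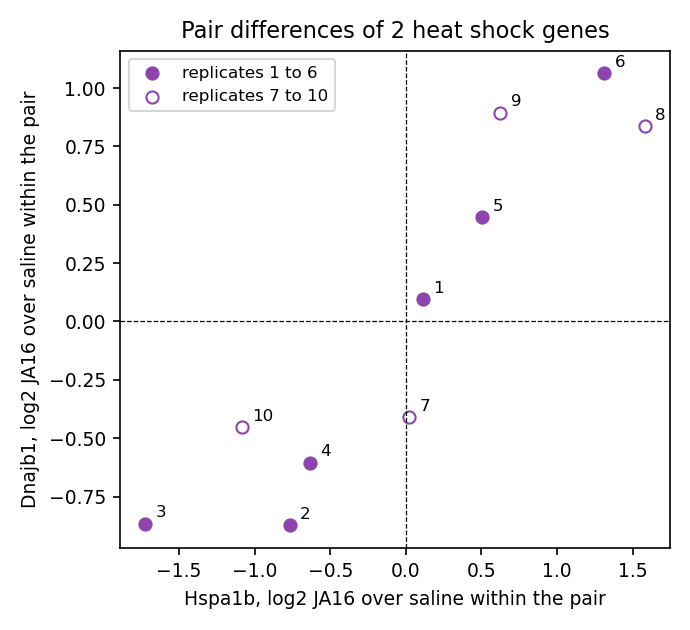
Log2 difference, JA16 over saline, of Hspa1b (horizontal axis) and Dnajb1 (vertical axis) within each of the 10 same-numbered pairs, with filled points for replicates 1 to 6 and open points for 7 to 10. The points run from replicate 3 at the lower left to replicates 6 and 8 at the upper right, with r = 0.917.

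Of 39 further heat shock genes and cochaperones, 37 were tested and 0 were called with limma, with or without the block. Hsf1 and Ptges3 did not enter the test, so the heat shock factor named above was not compared. Of the 37 tested, 21 (56.8%) had a log2 fold change above 0 and 16 below (median 0.021), beside 45.8% above 0 over all genes. The blocked limma fit gave 7 of them (18.9%) an unadjusted p under 0.05, beside 16.2% of all genes. The 3 highest were Hspbp1 (0.26, SE 0.11, limma adjusted p = 0.246), an Hsp70 exchange factor, the muscle small heat shock protein gene Hspb3 (0.22, SE 0.071, adjusted p = 0.191) and Bag2 (0.22, SE 0.10, adjusted p = 0.309). The 3 lowest were Dnajb4 (-0.29, SE 0.12, adjusted p = 0.269), Hspa4l (-0.27, SE 0.16) and Bag4 (-0.26, SE 0.14).

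Some chaperone genes differed far more between sets of arrays than between treatments. Beta-actin control probe sets lie at the 3′ and 5′ ends of that RNA, and what set their ratio in these arrays was not tested. The log2 ratio of 3′ to 5′ was 1.33 to 1.84 for the arrays of replicates 1 to 6 of either group. For replicates 7 to 10 of either group it was 0.48 to 0.64. The same ratio for Gapdh overlapped between these arrays, at 0.208 to 0.414 and 0.181 to 0.321, so the division rests on beta-actin. Intensity in replicates 7 to 10 exceeded that in replicates 1 to 6 by over 1 on the log2 scale in both groups for 4 of the 35, beside 4.38% of all genes. These were Pdia3 (1.84 in saline and 1.62 in JA16), Pdia4 (1.37 and 1.64), Hsp90aa1 (1.09 and 1.18) and Atf6 (1.00 and 1.09). Hsp90b1 gave 0.89 and 0.93. In the other direction, Dnajb1 gave -1.16 and -0.82 and Hspb1 -0.67 and -0.50. The treatment difference of these genes was taken within pairs, which lie in 1 set each.

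**Figure D4:**
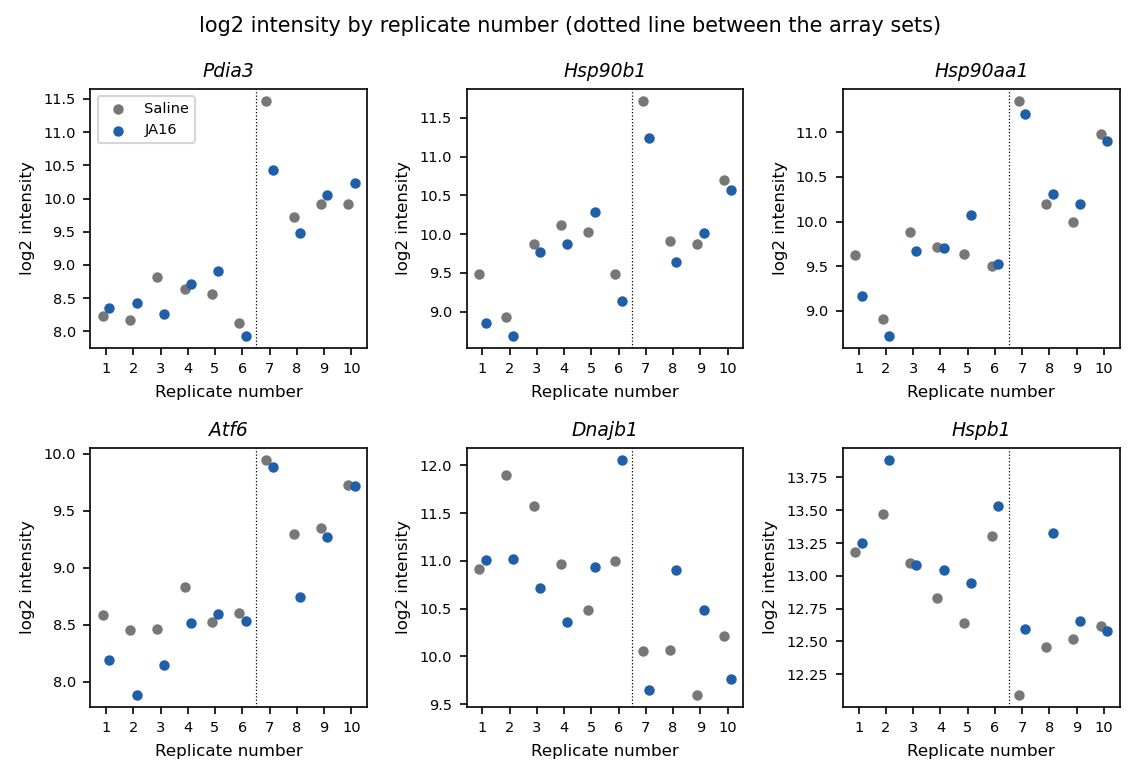
Log2 intensity of 6 chaperone genes by replicate number, saline in grey and JA16 in blue, with a dotted line between replicates 1 to 6 and 7 to 10. Pdia3, Hsp90b1, Hsp90aa1 and Atf6 lie higher on the right and peak in saline replicate 7, while Dnajb1 and Hspb1 lie lower on the right.

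Saline replicate 7 was the highest sample of its group for Pdia3 (2841.7), Hsp90b1 (3373.1), Hsp90aa1 (2617.3), Atf6 (984.4) and Edem1 (369.8). The same held for Hspa5, Canx, Dnajc3, Dnajb11, Sdf2l1, Pdia4, Pdia6, Dnaja1 and Hspd1. Replicate 7 was the lowest saline sample for Cryab (11883.5), Hspb1 (4361.5), Hspb6, Hspb8, Hspa8 and Hspe1. It was also the lowest for the reticulum genes Calr, P4hb, Herpud1 and Sel1l, so the reticulum genes did not share 1 direction in this sample. The same sample had the highest saline sums of 10 fibroblast and tendon markers (75587.9 against a median of 45846.1) and of macrophage and leukocyte markers (23632.1 against 8234.9). Its array also had the highest median intensity over all probe sets, 77.1 against 38.9 to 63.1 for the other arrays. The part of these cells, or of the array, in the chaperone values was not tested.

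The samples carried the markers of their labelled tissue. The summed intensity of 12 fibre genes such as Acta1 and Ckm was 214771.8 to 274336.2 in saline and 221254.6 to 318427.2 in JA16, while 4 liver genes summed to 25.1 to 117.7 over all samples and none passed the intensity limit. Over all genes 45.8% had a value above 0 and 16.2% an unadjusted p under 0.05. In JA16, all 12 slow fibre markers (median log2 fold change -0.49), all 6 tested nerve and Schwann cell markers (-0.60), all 8 endothelial and mural markers (-0.20), all 4 tested adipocyte markers (-0.38), 9 of 10 fibroblast and tendon markers (-0.20) and 4 of 6 tested macrophage and leukocyte markers (-0.098) had values below 0. The slow fibre median was -0.774 in replicates 1 to 6, which include JA16 replicate 3 with its low sum of 8551.7, and -0.186 in replicates 7 to 10. Within pairs, the median over the slow fibre markers was above 0 in 4 and below 0 in 6. Values above 0 were seen for 11 of 12 general fibre markers (0.048) and for 2 of 3 tested plasma cell and B cell markers (0.28). Of all these markers 0 were called with limma. An unadjusted p under 0.05 was found for 5 nerve, 3 fibroblast, 2 endothelial, 1 general fibre and 1 plasma cell marker, and for 0 slow fibre, adipocyte and macrophage markers. In whole muscle, fewer cells of a type and less RNA per cell cannot be told apart, and the part of these shifts in the chaperone values was not tested.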

How the data were processed

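The deposited values are linear MAS5 intensity values per probe set and array, per the submitters' processing notes, with no version given, and the authors' background subtraction and scaling were kept. Probe sets with 1 annotated gene were used (34945 of 45101), 5 values at or below 0 were set to 0.1, and log2 was taken. Probe sets entered at a mean log2 of 5.65 or more, the median of all, with the brightest per gene kept (11200 genes). The comparison used limma 3.58.1 (R 4.3.3), with an intensity trend and the replicate number as a block, 2-sided, with Benjamini-Hochberg adjustment over all genes. The procedure was tested on simulated data with changes larger than that of any chaperone gene and with the pairing built in. That test therefore does not bear on changes of the size seen here or on whether the pairing is real. Relations between genes used 100000 permutations, adjusted over 8. The number of arrays limits the precision.

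The labels give both groups the numbers 1 to 10, with adjacent array numbers. Across genes, the deviations from the group mean of 2 samples with 1 number correlated at 0.377 to 0.786. This was above the limit of 0.1 for pairing in 10 of 10 pairs. The same-numbered sample was the best match for only 6 of 10 saline samples and 5 of 10 JA16 samples. Same-numbered samples also lie in the same array set, and the part of the set in these correlations was not tested. The fit without the block, other scalings, filters, offsets and probe set choices, array sets and pairs left out were alternatives.

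The chaperone genes, the further lists and the marker lists were chosen with earlier results of these data known. Values in full are given for called genes, the 3 highest and 3 lowest of the reticulum genes and of the others, and Hspa5, Hsp90b1, Xbp1, Ern1, Hspa1b, Hsph1, Cryab and Hspb1. Promoters come from RefSeq (GRCm38.p6) and were not matched to probe positions.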

Additional observations from a re-analysis of the deposited data

Results flagged for a closer look

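Within each group of 10 samples, the highest and the lowest log2 value of each chaperone gene were compared with their nearest neighbour. The ratio is that distance as a share of the whole range, both on the log2 scale, while the intensities printed beside it are linear. Of 70 gene and group combinations, 6 passed Dixon's 95% limit for 10 samples, which chance passes in about 1 of 20 groups. Canx in JA16 was lowest in replicate 8 (2595.7 against 3342.5, ratio 0.53). Edem1 was highest in saline replicate 7 (369.8 against 151.8, ratio 0.673) and, within JA16, lowest in replicate 8 (69.6 against 117.5, ratio 0.578). Cryab in saline was lowest in replicate 7 (11883.5 against 14316.4, ratio 0.581). Hspb6 in JA16 was highest in replicate 2 (24627.6 against 19249.7, ratio 0.489). Hspb7 in JA16 was lowest in replicate 3 (325.4 against 1288.7, ratio 0.535). Each flag marks a single sample, but that sample also enters the treatment difference of its gene. For Hspb7 the log2 fold change was -0.19 with all pairs and 0.14 without replicate 3. Mlec had no such sample.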

How the results depend on the processing

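Mlec kept its direction under all 23 alternatives (log2 fold change 0.295 to 0.425, limma adjusted p = 0.0155 to 1.0) and its call under 12. The count of called chaperone genes was 0, and that of all called genes 4 without the replicate block, 10 with centred array medians, 9 without the intensity trend, 9 with the array set as the block, 1 with the beta-actin ratio as a covariate, and 0 in replicates 1 to 6 and 0 in replicates 7 to 10 alone. At an unadjusted p under 0.05 those 2 subsets held 1099 and 799 genes, 3 and 6 of them chaperone genes. Leaving out each pair in turn gave 0 to 1 called chaperone genes and 10 to 51 called genes in all. Fewer samples were fitted in the subsets; for the other settings the cause was not tested. The reticulum median (-0.032) ran from -0.089 in replicates 7 to 10 to 0.046 in replicates 1 to 6, with -0.072 with the beta-actin ratio, 0.037 with centred medians, 0.039 with the mean of probe sets and -0.067 to 0.019 when a pair was left out. The cytosolic and mitochondrial median (0.043) ran from -0.010 with quantile normalization to 0.113 in replicates 7 to 10, with 0.112 with centred medians, 0.007 in replicates 1 to 6 and 0.029 to 0.074 when a pair was left out. No further pathway gene was called under any alternative. Without the 2 farthest pairs, the relation of Hspa8 with Hsp90aa1 was -0.574, and with centred medians 0.552, while Hspa5 with Hspa1b was 0.613. Background subtraction, probe summarisation and detection calls could not be varied without scanner files.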
